A study of Mus musculus with 9 samples.

Results

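The genes described here encode the machinery that copies DNA in S phase and divides the chromosomes in mitosis. They are 36 of the 47729 Ensembl gene identifiers in a read count table of mouse retina, chosen by name: 16 replication genes, from the Mcm helicase subunits to Tk1, and 20 mitosis genes, from Mki67 to Nusap1. Each matched 1 identifier. Whole retinas were sequenced in 9 libraries, 3 for each of 3 groups on a C57Bl6/J background. In the Yap CKO group, floxed Yap was combined with Rax-CreERT2, a Cre that works only with tamoxifen and acts in Müller cells, the radial glia of this tissue. The control group had the same floxed allele and no Cre. Mice of both groups were injected with 4-hydroxytamoxifen at P10, and their retinas were taken at P60, with 1 frozen retina per library. C57 mice were wild type, without a floxed allele, were examined at P30 and were re-analysed from an earlier series. Their labels give no tamoxifen day, and the design text's statement that all animals were injected was not taken to cover them. Library names of both P60 groups carry the letters MNU, the usual short form of the photoreceptor toxin N-methyl-N-nitrosourea, while the labels describe no such treatment. Nothing in the labels says that the retinas of a group came from separate animals, so p-values measure the spread between these libraries.

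A cell about to divide first loads the Mcm2 to Mcm7 ring onto its replication origins with Cdc6 and Cdt1. Cdc45 and the GINS proteins then turn that ring into a moving helicase, Pcna clamps the polymerases to DNA, and Rrm1, Rrm2, Tyms and Tk1 supply nucleotides. Cdk1 with cyclins A2, B1 and B2 drives entry into mitosis. Plk1 and the Aurora kinases build the spindle, Bub1 and Bub1b delay separation until every chromosome is attached, and Cdc20 and Ube2c help the anaphase-promoting complex to end mitosis. In the adult mammalian retina neurons do not divide, and Müller cells normally rest outside the cycle. The title of the series names the exit of Müller glia from that resting state as its subject, and the comparisons below give the transcripts of that machinery in the 3 groups. In bulk tissue, fewer cells of a type and less RNA per cell cannot be told apart.

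The sequences around the start sites of the genes differed between replication and mitosis members. RefSeq promoters (GRCm38.p6, 250 bases before to 50 after the start) were found for 29 of the 36 genes, 13 replication and 16 mitosis members. They were searched on both strands for E2F motifs (TTTCCCGC, TTTCGCGC, TTTGCCGC or TTTGGCGC), a sequence class known from S phase genes, and for the cell cycle homology region or CHR (TTTGAA or TTCGAA), known from G2 and M phase genes. Matches were counted per gene, in any of its listed promoters. An E2F motif was present in 6 of 13 replication genes (46.2%), in 1 of 16 mitosis genes (6.25%) and in 2.6% of all 27025 genes with a promoter. A CHR motif was present in 3 of 13 replication genes (23.1%), 12 of 16 mitosis genes (75%) and 21.7% of all these genes. CCAAT, a shorter motif, was in 69.2% of the replication, 87.5% of the mitosis and 41.1% of all these genes. A match describes the letters only. The E2F windows of the 4 replication members that rose against C57 and had a promoter entry are shown first, with the motif in capitals.
Cdt1 (chr8:122568035-122568064, plus strand): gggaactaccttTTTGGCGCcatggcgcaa
Mcm3 (chr1:20820263-20820292, minus strand): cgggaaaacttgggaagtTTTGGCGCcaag
Mcm5 (chr8:75109347-75109376, plus strand): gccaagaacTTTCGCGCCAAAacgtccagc
Mcm6 (chr1:128359795-128359824, minus strand): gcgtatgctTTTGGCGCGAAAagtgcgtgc
In Mcm5 and Mcm6 a match on each strand overlaps the other, so 12 letters are in capitals. The CHR windows, also with the motif in capitals, belong to the 3 mitosis members that fell against C57 and held one, and to 3 genes often used to score dividing cells.
Spc25 (chr2:69206172-69206201, minus strand): ggcggtggagagTTTGAAattgaaagactg
Plk1 (chr7:122159453-122159482, plus strand): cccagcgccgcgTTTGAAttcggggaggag
Bub1b (chr2:118598231-118598260, plus strand): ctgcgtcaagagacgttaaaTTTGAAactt
Top2a (chr11:99024351-99024380, minus strand): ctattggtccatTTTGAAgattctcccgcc
Cdk1 (chr10:69352910-69352939, minus strand): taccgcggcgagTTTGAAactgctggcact
Mki67 (chr7:135716478-135716507, minus strand): ttagcgccagaaTTTGAAccgccgttttgg
The 250 bases before the start of Mcm6, which held 2 stretches of E2F matches (capitals), the first with overlapping matches on both strands, show how much lower-case sequence surrounds them.
Mcm6 upstream (chr1:128359706-128359955, minus strand): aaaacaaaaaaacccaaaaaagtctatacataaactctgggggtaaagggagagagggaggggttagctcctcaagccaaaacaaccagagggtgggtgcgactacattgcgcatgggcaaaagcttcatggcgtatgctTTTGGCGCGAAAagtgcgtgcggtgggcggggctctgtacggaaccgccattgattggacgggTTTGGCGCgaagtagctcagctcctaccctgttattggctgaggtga
Genes that share a motif did not all have the same result. Mcm7 also holds E2F motifs and did not pass against C57, Cdc6 holds one and could not be tested there, and the CHR genes Spc25 and Top2a went in opposite directions in Yap CKO against C57.

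**Figure D1:**
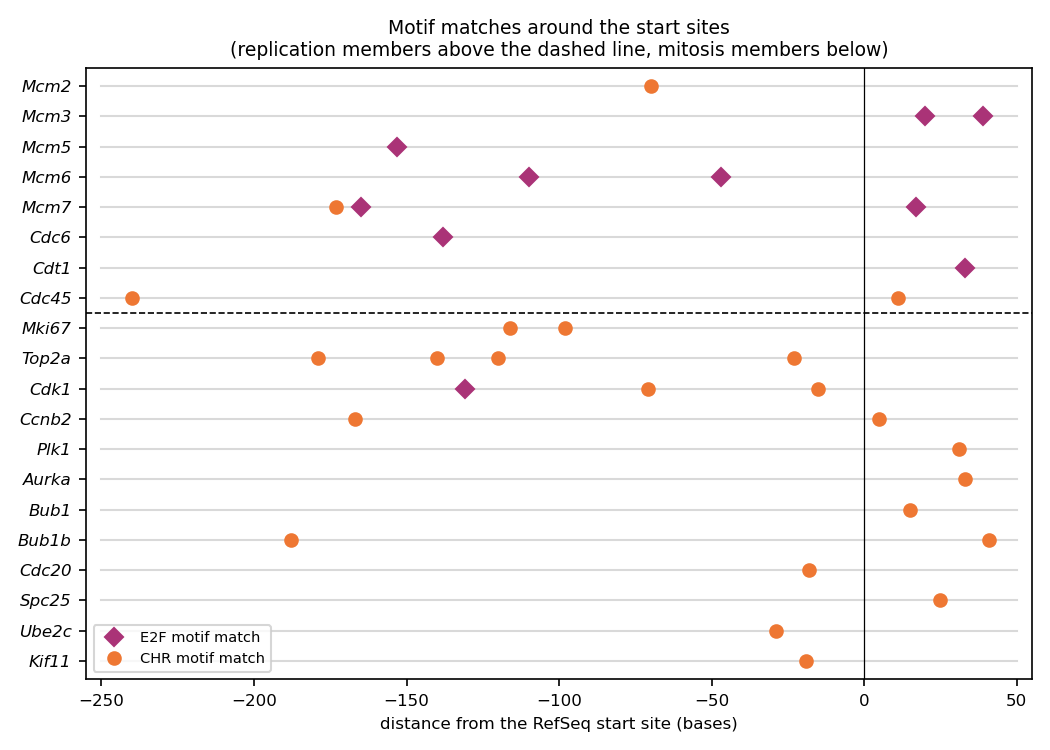
Each line is the promoter window of 1 gene, from 250 bases before to 50 after the RefSeq start (horizontal axis, bases), with E2F matches as diamonds and CHR matches as circles. E2F matches lie in 6 replication genes and in Cdk1, while CHR matches lie in 12 mitosis and 3 replication genes.

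Total counts were 13760765 to 16808499 in the C57 and 34739679 to 37629264 in the P60 libraries. One C57 column has a number that no sample description shares and is called the unnumbered C57 library. Yap CKO 3 stood apart: the summed level of 16 lens marker genes was 1501 CPM (TMM-scaled read counts relative to library size) there and 4.19 to 34.3 CPM in the other 8 libraries. The mean log2(CPM + 1) of 15 rod marker genes was 11.7 to 11.9 in C57, 7.27 to 9.44 in control and 5.56 to 9.55 in Yap CKO, lowest in Yap CKO 3, and all 15 fell in control against C57. Müller markers (12 genes), detected in every library, summed to 8556 to 9443 CPM in C57, 6693 to 7615 in control and 6669 to 8420 in Yap CKO, and in control against C57 7 of them fell and 4 rose. Microglia markers (15 genes) summed to 123 to 143 CPM in C57, 140 to 158 in control and 141 to 191 in Yap CKO, endothelial markers (10 genes) to 507 to 571, 555 to 577 and 518 to 839, and circulating leukocyte markers (8 genes) to 0.347 to 0.649, 0.884 to 2.24 and 0.815 to 3.18. The part of these cell populations in the changes below was not tested. All CPM are scaled by TMM over the 9 libraries.

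Low levels were more common among the mitosis than among the replication genes. The mean stayed under 1 CPM in every group for 10 of 20 mitosis members and 3 of 16 replication members. Count filtering left 13 replication and 11 mitosis members testable in all 3 comparisons. Not testable in any were Tk1 of the replication members and Mki67, Ccnb1, Aurkb, Bub1, Birc5 and Ube2c of the mitosis members. Cdc6, Rrm2, Cdk1 and Ccnb2 could be tested only between the P60 groups, and Top2a there and in Yap CKO against C57.

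Mki67, the common marker of cycling cells, had 1, 2 and 1 counts in the C57 libraries. It had 3, 1 and 2 counts in control and 1, 3 and 8 in Yap CKO 1, 2 and 3. The highest of these corresponds to 0.202 CPM, and the groups overlapped. Ccnb1, cyclin B1, had 3, 1 and 4 counts in C57, 3, 5 and 7 in control and 5, 6 and 1 in Yap CKO, again overlapping. Aurkb, the kinase of the chromosomal passenger complex, and its partner Birc5 had 0 to 4 and 0 to 12 counts over the 9 libraries. Tk1, the salvage enzyme thymidine kinase, was at 0 counts in all 3 C57 libraries, at 3, 6 and 7 in control and at 5, 1 and 1 in Yap CKO. In a C57 library, 3 counts correspond to 0.208 to 0.251 CPM, so a count of 0 does not show absence below that level. At this depth these 7 genes give no measurable difference.

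Rrm2, the regulatory subunit of ribonucleotide reductase, had 0.587, 0.216 and 0.0694 CPM in C57. Control libraries had 0.454, 0.101 and 0.123 CPM and Yap CKO libraries 0.280, 0.208 and 0.277 CPM, so all groups overlapped at 1 to 17 counts. Its partner Rrm1 was far higher, with a mean of 62.0 ± 7.66 CPM (SD, n = 3) in C57. Per transcript length (RPKM, with exon-union lengths), the order of mean levels in C57 was led by Spc25 at 67.6 and Pcna at 30.8, followed by Rrm1 at 5.63, Mcm4 at 4.86 and Bub1b at 4.74. In control, Pcna led with 33.6 RPKM, and Mcm4 at 6.34, Rrm1 at 3.73, Mcm7 at 3.69, Spc25 at 3.39 and Cdt1 at 3.20 came after it. Spc25 was thus the first in C57 and the fifth in control, where it lay close to Mcm7 and Cdt1.

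**Figure D2:**
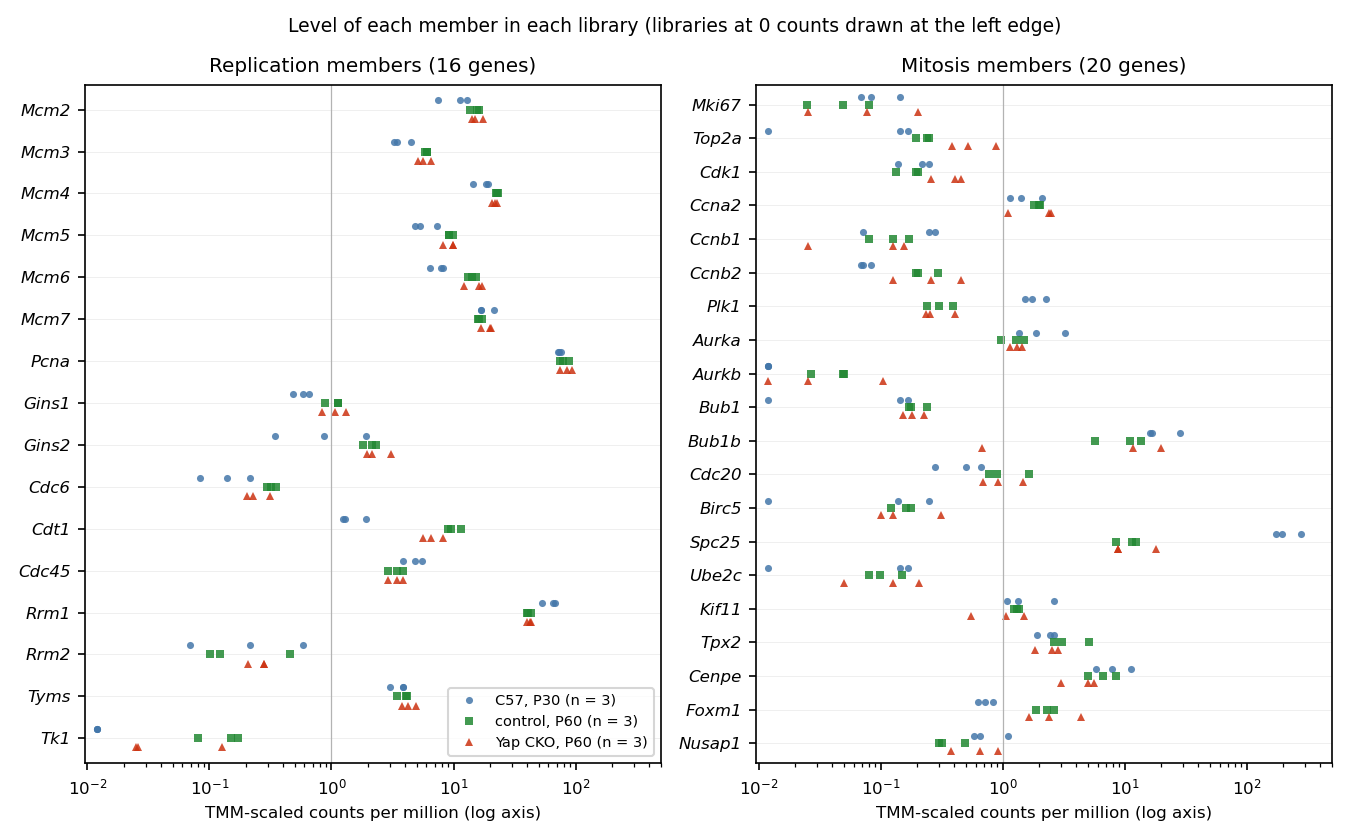
Each point is 1 library's level (TMM-scaled CPM, log axis), with C57 as circles, control as squares and Yap CKO as triangles, n = 3 each; the grey line marks 1 CPM. Most replication genes lie above that line, 10 of the 20 mitosis genes have group means below it throughout, and Spc25 separates C57 from both P60 groups.

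Summed over their members, mitosis transcripts were lower in the P60 groups than in C57, while replication transcripts overlapped between the groups. Replication members summed to 198 to 229 CPM in C57, 216 to 238 in control and 216 to 252 in Yap CKO, overlapping. Mitosis members summed to 208 to 330 CPM in C57, 34.0 to 47.0 in control and 26.1 to 56.3 in Yap CKO, with no overlap between C57 and the others. That difference in the sum came mainly from 1 gene. Spc25 made up 82.9% to 85% of the mitosis sum in C57 and 22.1% to 34.0% in the P60 libraries. Without Spc25 and Bub1b the mitosis sum was 19.5 to 21.9 CPM in C57, 19.7 to 21.1 in control and 16.5 to 19.4 in Yap CKO.

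In control retinas at P60, Cdt1 and 3 of the 6 Mcm ring genes were higher than in C57 retinas at P30, and the kinetochore gene Spc25 and the mitotic kinase gene Plk1 were lower. Of 13 replication members tested, 5 rose (Cdt1, Mcm6, Gins1, Mcm5 and Mcm3), 1 fell (Rrm1) and 7 did not pass. Of 11 mitosis members tested, 1 rose (Foxm1) and 4 fell (Spc25, Plk1, Nusap1 and Bub1b). These counts are read against 7202 of 15820 genes that passed in this comparison, 45.5%, with 23.1% higher and 22.4% lower. The median log2 fold change was 0.49 for the replication members and -0.42 for the mitosis members, beside 0.03 for all genes. Libraries did not overlap between the groups for 7 higher and 2 lower replication members and for 3 higher and 4 lower mitosis members, against 32.3% of all genes higher and 26.6% lower without overlap. Age, the floxed allele, the letters MNU, the source series and depth all differ between these groups, tamoxifen may differ, and these cannot be told apart.

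Cdt1, which loads the Mcm ring at origins, had 1.93, 1.30 and 1.25 CPM in C57 and 9.51, 11.6 and 9.06 CPM in control. Every control library was above every C57 library, and Cdt1 was 6.65-fold higher in control (log2 2.73, SE 0.222, 95% interval 2.22 to 3.25, adjusted p = 9.23e-05). Mcm6, a subunit of that ring, had 7.88, 8.15 and 6.39 CPM in C57 and 13.0, 15.2 and 14.1 in control, again without overlap. It rose by 0.89 on the log2 scale (SE 0.151, adjusted p = 0.00236). Mcm3 had 3.44, 4.47 and 3.26 CPM in C57 and 6.01, 6.03 and 5.82 in control (log2 0.64, SE 0.174, adjusted p = 0.0183). The remaining ring subunits were uneven. Mcm5 rose (log2 0.66, adjusted p = 0.0200), while Mcm2 (log2 0.49, adjusted p = 0.0863), Mcm4 (0.35, 0.0728) and Mcm7 (-0.20, 0.272) did not pass. Mcm2 had 13.0, 11.3 and 7.43 CPM in C57 and 16.2, 15.6 and 13.7 in control, which did not overlap. Gins1, a subunit of the GINS complex, rose from a low level (log2 0.83, adjusted p = 0.0389). With any 1 control library left out, only Cdt1 and Mcm6 passed among the higher replication members, so the count of 5 rests on all 3 controls.

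Pcna, by contrast, was near the same level in every library, with 72.1, 76.1 and 73.6 CPM in C57 and 78.4, 88.5 and 74.8 in control. The log2 difference was 0.09 (95% interval -0.16 to 0.34, adjusted p = 0.511). Rrm1, the large subunit of ribonucleotide reductase, went the other way from Cdt1, with 53.3, 67.8 and 64.8 CPM in C57 and 42.8, 40.8 and 39.7 in control. It fell by 0.63 on the log2 scale (SE 0.122, adjusted p = 0.00451). Cdc45, a helicase component, had a log2 difference of -0.52 (adjusted p = 0.0666), and Tyms, thymidylate synthase, one of 0.09 (adjusted p = 0.717). Gins2, at 1.01 (adjusted p = 0.102), shares 67.3% of its exon bases with Gse1 on the opposite strand. Without knowledge of the strand setting used in counting, its reads cannot be assigned with certainty. Replication members thus went in both directions: Cdt1, Mcm3, Mcm5, Mcm6 and Gins1 rose, and Rrm1 fell.

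Spc25, a subunit of the NDC80 complex that ties kinetochores to spindle fibres, had 173, 193 and 280 CPM in C57 and 12.4, 8.45 and 11.6 CPM in control. It lies on chr2:69193895-69206194 (minus strand). Every C57 library was far above every control library, and Spc25 was 20.4-fold lower in control (log2 -4.35, SE 0.243, 95% interval -4.91 to -3.79, adjusted p = 2.09e-05). Its level in C57 was the highest per length of all 36 genes, although Mki67, Aurkb and Ccnb1 had 0 to 4 counts in the same libraries. Plk1, a kinase of mitotic entry and spindle assembly, had 2.26, 1.73 and 1.53 CPM in C57 and 0.240, 0.302 and 0.393 in control (log2 -2.56, SE 0.292, adjusted p = 0.000393). No libraries overlapped, and Plk1 was 5.90-fold lower in control. Bub1b, the checkpoint protein BubR1, had 16, 16.7 and 28.2 CPM in C57 and 13.5, 5.76 and 11.0 in control. It passed (log2 -1.05, SE 0.338, adjusted p = 0.0366), as did Nusap1, which bundles spindle fibres (log2 -1.11, adjusted p = 0.0409). Without C57 replicate 2, the unnumbered C57 library, control replicate 2 or control replicate 3, only Spc25 and Plk1 passed among the lower mitosis members.

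Foxm1, a transcription factor of G2 and M phase genes, was the mitosis member that rose. It had 0.838, 0.721 and 0.625 CPM in C57 and 2.64, 2.29 and 1.89 in control, without overlap (log2 1.61, SE 0.255, adjusted p = 0.00169). Cdc20, the activator of the anaphase-promoting complex, was also higher in every control library, at a log2 difference of 1.19 (SE 0.458, adjusted p = 0.0666). The other members that did not pass were Ccna2 (0.28), Tpx2 (0.58), Cenpe (-0.34), Kif11 (-0.42) and Aurka (-0.81), on the log2 scale. Plk1, a textbook target of Foxm1, fell in the same comparison, and the activity of Foxm1 on its targets was not tested.

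Yap CKO retinas at P60 differed from C57 in the same genes at the top of each list, and this comparison shares the C57 libraries with the one above, so the values are set side by side only. Of 13 replication members tested, 3 rose (Cdt1, Mcm6 and Mcm5) and 1 fell (Rrm1). Of 12 mitosis members tested, 2 rose (Top2a and Foxm1) and 3 fell (Spc25, Plk1 and Cenpe). In this comparison 40.5% of 15840 genes passed, 20.3% higher and 20.2% lower. Median log2 fold changes were 0.51 for replication members, -0.54 for mitosis members and 0.02 for all genes. Groups did not overlap for 8 higher and 1 lower replication members and for 3 higher and 3 lower mitosis members, where all genes gave 30.3% higher and 24.8% lower.

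Cdt1 had 6.52, 8.27 and 5.65 CPM in Yap CKO, all above the C57 libraries (log2 2.16, SE 0.266, adjusted p = 0.000543). Mcm6 had 12.1, 16.2 and 17.1 CPM, also all above C57 (log2 0.98, SE 0.198, adjusted p = 0.00535). Mcm5 had 5.28, 7.28 and 4.86 CPM in C57, 9.13, 9.13 and 9.89 in control and 8.18, 9.97 and 9.86 in Yap CKO (Yap CKO against C57 log2 0.64, SE 0.212, adjusted p = 0.0404). The call of Mcm5 was close to the threshold. It was lost in Yap CKO against C57 without C57 replicate 1 (adjusted p = 0.0687), without the unnumbered C57 library (0.105) or without any 1 Yap CKO library (0.0528 to 0.130). Rrm1 had 42.2, 43.4 and 40.2 CPM in Yap CKO, below every C57 library (log2 -0.61, SE 0.136, adjusted p = 0.00846), and missed the threshold without C57 replicate 2 (0.0520). Mcm2, at 14.1, 17.4 and 14.9 CPM, was above every C57 library but did not pass (log2 0.51, adjusted p = 0.0982). Pcna had 85.7, 93.4 and 75.0 CPM and overlapped with C57 (log2 0.15, adjusted p = 0.369).

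Spc25 had 18.2, 8.82 and 8.88 CPM in Yap CKO and was 18.5-fold lower than in C57 (log2 -4.21, SE 0.349, adjusted p = 0.000102). Plk1 had 0.408, 0.234 and 0.252 CPM (log2 -2.64, SE 0.335, adjusted p = 0.000613), and Foxm1 1.66, 2.42 and 4.36 CPM (log2 1.91, SE 0.427, adjusted p = 0.00844). None of these 3 genes overlapped between Yap CKO and C57. Cenpe, a kinesin that brings chromosomes to the spindle equator, had 5.78, 11.2 and 7.84 CPM in C57 and 5.56, 5.02 and 3.03 in Yap CKO (log2 -0.92, SE 0.311, adjusted p = 0.0442). Bub1b did not pass (log2 -0.96, SE 0.991, adjusted p = 0.478), and its Yap CKO libraries spread from 0.681 to 19.8 CPM. Top2a, the topoisomerase that untangles replicated chromosomes, had 0.168, 0.144 and 0 CPM in C57, which is 2, 2 and 0 counts, and 0.382, 0.520 and 0.883 CPM in Yap CKO. The test gave log2 2.48 (SE 0.735, 95% interval 0.80 to 4.15, adjusted p = 0.0270), but every C57 library was below the level of 3 counts. That call was lost without C57 replicate 2 (adjusted p = 0.0726) or the unnumbered C57 library (0.0688), and with any 1 Yap CKO library left out the gene did not reach the count filter.

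**Figure D3:**
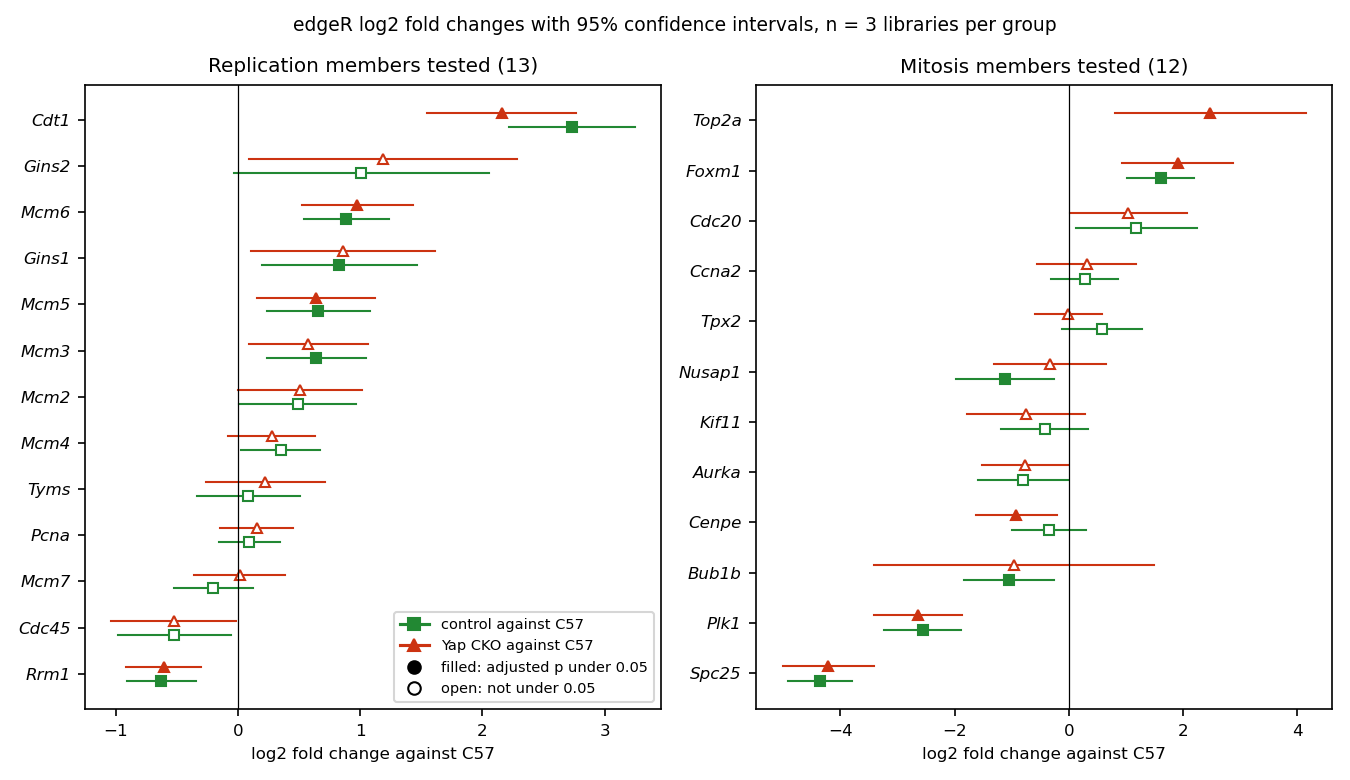
Points are log2 fold changes against C57 with 95% confidence intervals (horizontal axis) for control (squares) and Yap CKO (triangles), n = 3 libraries per group; filled symbols passed at an adjusted p under 0.05. Cdt1 lies farthest to the right among replication members and Spc25 farthest to the left among mitosis members in both comparisons, which share the C57 libraries.

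Between the P60 groups, which differ by the Cre, no replication or mitosis gene passed the test. The targeted gene Yap1 had 67.4, 61.0 and 57.6 CPM in control and 15.3, 21.5 and 24.3 in Yap CKO, with no overlap (log2 -1.60, adjusted p = 0.0327). In edgeR's test 0 of 15 replication members and 0 of 14 mitosis members tested were called higher or lower. Over all 16539 genes tested the share was 0.200%, with 0.0181% higher and 0.181% lower. At an unadjusted p under 0.05 there was 1 replication member higher (Mcm7) and 1 lower (Cdt1), and 2 mitosis members higher (Top2a and Cdk1), where all genes gave 8.59% higher and 9.25% lower. DESeq2 called 1 member, Cdt1, lower in Yap CKO (log2 -0.57, adjusted p = 0.0465), and limma-voom called none. Over all genes DESeq2 called 364 higher and 558 lower of 16539, where edgeR called 3 and 30. Medians were 0.03 for replication, 0.08 for mitosis and 0.01 for all genes.

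The intervals show how much change in whole-retina level the data could have hidden. They set no limit on change within Müller cells, where the Cre acts, since those cells were not separated from the rest. Of the 15 replication members, 13 had 95% intervals within a 2-fold change in either direction. Bounds over all 15 ran from -1.13 to 1.54 on the log2 scale, both set by Rrm2. Only 4 of the 14 mitosis members had intervals within a 2-fold change, and the bounds over all 14 ran from -2.86 to 3.05. For Pcna the interval was -0.16 to 0.31, for Mcm2 -0.23 to 0.29, for Mcm6 -0.23 to 0.44 and for Rrm1 -0.12 to 0.18. A 2-fold change in the whole-retina level of these 4 replication genes lies outside the intervals. For Bub1b, at log2 0.09 (SE 1.11), no such limit can be set.

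Cdt1, with 9.51, 11.6 and 9.06 CPM in control and 6.52, 8.27 and 5.65 in Yap CKO, was the replication member with the smallest p. All 3 Yap CKO libraries were below all 3 controls (log2 -0.56, SE 0.173, 95% interval -0.96 to -0.16, adjusted p = 0.160). It was the only lower member without overlap, where 12.1% of all genes had none. Mcm7 had 16.2, 17.0 and 15.8 CPM in control and 20.1, 20.3 and 16.9 in Yap CKO (log2 0.23, SE 0.0969, adjusted p = 0.275). Its lowest Yap CKO library lay among the controls. Cdc6, the partner of Cdt1 in licensing, had 0.294, 0.352 and 0.319 CPM in control and 0.204, 0.312 and 0.227 in Yap CKO (log2 -0.38, adjusted p = 0.593). Tyms had 4.06, 4.17 and 3.46 CPM in control and 4.20, 4.94 and 3.78 in Yap CKO (log2 0.15, adjusted p = 0.676). Both overlapped between groups.

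Top2a and Cdk1 were the only higher members whose groups did not overlap, where 13.0% of all genes had no overlap in that direction. Top2a had 0.240, 0.251 and 0.196 CPM in control (9, 10 and 8 counts) and 0.382, 0.520 and 0.883 in Yap CKO (15, 20 and 35 counts). The log2 difference was 1.37 (SE 0.389, 95% interval 0.46 to 2.27, adjusted p = 0.146). Cdk1, the kinase of mitotic entry, had 0.134, 0.201 and 0.196 CPM in control and 0.408, 0.260 and 0.454 in Yap CKO (log2 1.06, SE 0.365, adjusted p = 0.194). Both were highest in Yap CKO 3, the library with the lens transcripts and the lowest rod markers, which also had the highest Mki67 and Foxm1. Without it, Top2a was at log2 0.97 (adjusted p = 0.125) and Cdk1 at 0.90 (adjusted p = 0.216). The part of lens and endothelial transcripts in these 2 genes was not tested.

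Nusap1 had 0.320, 0.302 and 0.491 CPM in control and 0.917, 0.651 and 0.378 in Yap CKO (log2 0.80, SE 0.387, adjusted p = 0.333). Cenpe had 8.47, 5 and 6.70 CPM in control and 5.56, 5.02 and 3.03 in Yap CKO (log2 -0.56, SE 0.267, adjusted p = 0.325). Neither pair of groups was free of overlap. The log2 differences of the other mitosis members tested were -0.07 for Plk1, 0.06 for Aurka, -0.58 for Tpx2, -0.32 for Kif11, 0.15 for Spc25, 0.31 for Foxm1, 0.29 for Ccnb2, -0.13 for Cdc20 and 0.05 for Ccna2, none with an adjusted p under 0.05.

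**Figure D4:**
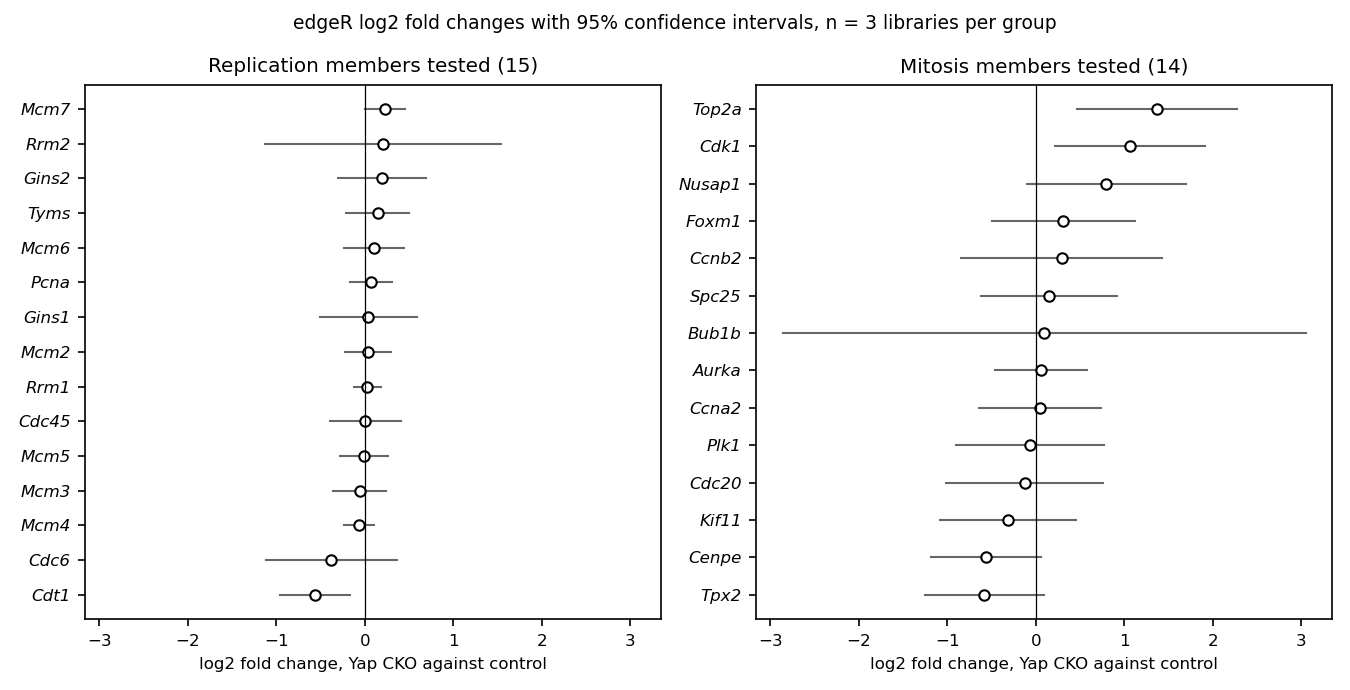
Points are log2 fold changes of Yap CKO against control with 95% confidence intervals (horizontal axis), n = 3 libraries per group; no member passed. Intervals of the 15 replication members are mostly narrow, while those of the 14 mitosis members reach from -2.86 (Bub1b) to 3.05 (Bub1b).

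Among the P60 libraries, Bub1b had its highest and lowest values inside the same group. In control 1, 2 and 3 it had 13.5, 5.76 and 11.0 CPM, while the rod marker level (mean log2(CPM + 1) of 15 genes) was 9.44, 7.27 and 8.48. In Yap CKO 1, 2 and 3 it had 19.8, 11.8 and 0.681 CPM beside rod levels of 9.55, 8.68 and 5.56. Within each group the library with more rod transcript had more Bub1b, and the order was the same over all 6. Over the 6 P60 libraries Pearson's r between the rod level and log2(CPM + 1) of Bub1b was 0.979, and Spearman's rho was 1. The relation was computed after the values of Bub1b had been seen, so no p is given for it. Without Yap CKO 3 and control 2, the libraries farthest from the median rod level, r was 0.847. Of all genes tested, 1.11% had an r at least as high.

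Over the same 6 libraries Kif11 (r = 0.870), Cenpe (0.839), Ccna2 (0.831) and Ccnb2 (0.825) came after Bub1b among the 29 members computed. An r at least as high as these was found in 6.94% (Kif11) to 9.08% (Ccnb2) of all genes tested. Without Yap CKO 3 and control 2, r was 0.551 for Kif11, 0.274 for Cenpe, 0.381 for Ccna2 and 0.848 for Ccnb2. Spc25 had r = 0.691, and 15.1% of all genes tested had an r at least as high. Mcm6 had r = -0.814, the lowest of the 29, and 6.48% of all genes tested had an r at least as low. With 3 libraries in a group the relation to rod level cannot be tested within groups. Spc25 and Bub1b were the 2 mitosis members with the highest level per length in C57. That group differs from the P60 groups in age, the floxed allele, the letters MNU, source series and depth as well as in rod markers. It may also differ in tamoxifen. Whether rods themselves hold these transcripts was not tested, since the libraries are of whole retina.

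**Figure D5:**
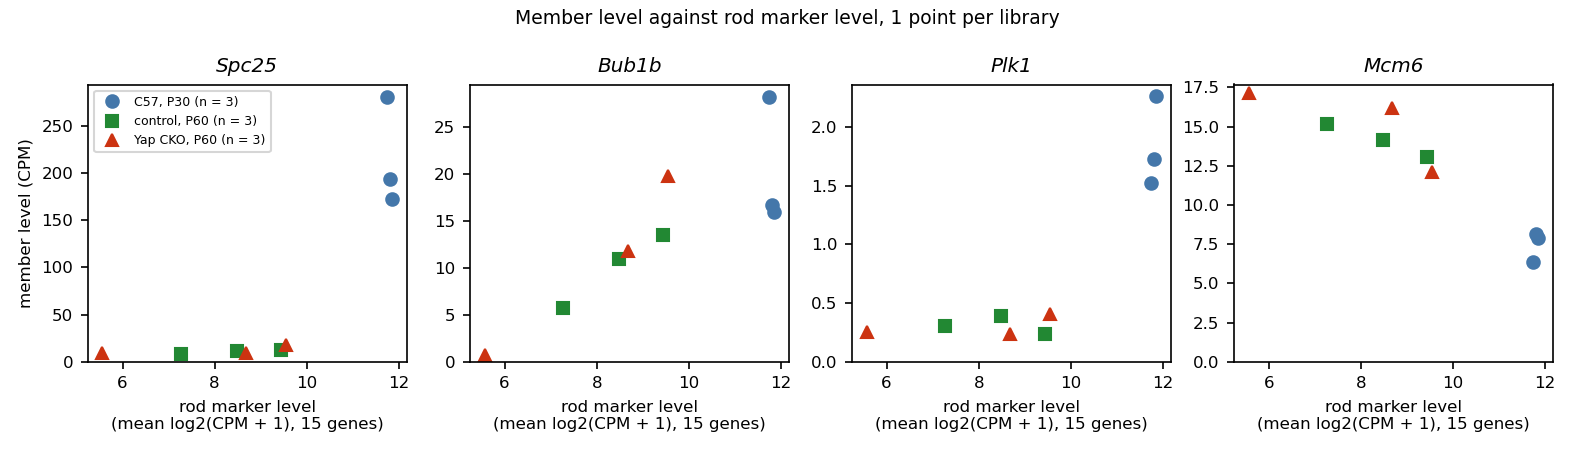
Each point is 1 library, with the rod marker level (mean log2(CPM + 1) of 15 genes) on the horizontal and the level of the named gene (CPM) on the vertical axis; C57 are circles, control squares and Yap CKO triangles. Bub1b orders the 6 P60 libraries by rod level (r = 0.979), and Spc25 is far higher in the 3 C57 libraries (173 to 280 CPM) than in the others (8.45 to 18.2 CPM).

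Other genes of the same pathways were taken from textbook lists. Of 42 further replication genes, 40 were tested in control against C57, where 5 rose and 11 fell, with a median log2 fold change of -0.16. Rpa3, of the single-strand binding complex, fell by 1.21 on the log2 scale (adjusted p = 0.000946), Chaf1a, a histone chaperone of replication, by 1.17 (0.00126), and Dut, the dUTPase, by 0.71 (0.00126). Of 45 further mitosis genes, 32 were tested, 2 rose and 12 fell. The checkpoint gene Mad2l1 fell by 1.10 (adjusted p = 0.000438), the condensin subunit Smc4 by 1.22 (0.000956) and Espl1, the protease separase, by 2.27 (0.00064). Of 19 genes of E2F factors, pocket proteins and their partners, 17 were tested, 6 rose and 2 fell. E2f1 rose by 2.21 (adjusted p = 7.76e-05), Cdk2 by 1.53 (0.00052) and the phosphatase Cdc25a by 0.91 (0.00197). E2f1 had 1.59, 1.51 and 1.87 CPM in C57 and 7.53, 7.72 and 8.37 in control. The shares of all genes given above, 23.1% higher and 22.4% lower, are the background for these counts.

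Of 7 genes of CDK inhibitors, which hold the cycle back, 6 were tested in control against C57, where 2 rose and 1 fell, near the 45.5% of all genes that passed in either direction. Cdkn1a, which encodes p21, had 7.21, 5.70 and 9.44 CPM in C57 and 114, 153 and 124 in control (log2 4.10, adjusted p = 1.83e-05). Cdkn1c fell by 0.68 (adjusted p = 0.0361) and Cdkn2d rose by 0.37 (0.0495). In the same control libraries, then, Cdt1, E2f1, Foxm1 and the inhibitor Cdkn1a were all above C57. Mki67, at 1 to 3 counts there, was too low to be tested, so it cannot be compared with them.

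Against C57, Yap CKO had 4 of 40 further replication genes higher and 8 lower, with Uhrf1 at log2 2.27 (adjusted p = 0.00497), Timeless at 0.96 (0.00509) and Rfc5 at -0.94 (0.00661). Of 33 further mitosis genes tested, 3 rose and 10 fell, among them Mad2l1 (-1.07, 0.000996), Smc4 (-1.21, 0.00209) and Espl1 (-1.81, 0.00364). The E2F and pocket protein list had 5 higher and 5 lower of 17, with E2f1 at 2.04 (0.000366), Cdk2 at 1.38 (0.00172) and Rbl2 at -0.78 (0.00296). Of 6 CDK inhibitors tested, 2 rose, Cdkn1a (3.98, adjusted p = 9.36e-06) and Cdkn2b (1.26, 0.0312), and Cdkn1c fell (-0.67, 0.0373). Beside these counts, 20.3% of all genes tested were higher and 20.2% lower.

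In Yap CKO against control, edgeR called 0 of the 41 further replication, 37 mitosis, 17 E2F and pocket protein and 6 CDK inhibitor genes tested. At an unadjusted p under 0.05 there were 6 further replication genes higher, 1 further mitosis gene higher and 2 E2F or pocket protein genes lower, where all genes gave 8.59% higher and 9.25% lower. The values with the smallest p were log2 0.24 for Rfc2, 0.20 for Pold2 and 0.25 for Dut among replication genes, 0.31 for Cdc25b, -0.25 for Smc2 and 0.16 for Zwint among mitosis genes, and -0.28 for Lin54, -0.30 for E2f3 and -0.25 for Lin9 among E2F partners. Cdkn1a was at -0.10, with 118, 126 and 120 CPM in Yap CKO. The Cdkn1a values overlapped with those of control. Groups did not overlap for 6 higher and 1 lower further replication genes and for 2 higher and 3 lower further mitosis genes. The same held for 5 lower E2F or pocket protein genes. Of all genes tested, 13.0% were higher and 12.1% lower without overlap.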

How the data were processed

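Whole-retina RNA of 9 libraries was sequenced from directional TruSeq libraries, per the labels' protocols. HISAT2 2.1.0, featureCounts, edgeR and the build GRCm38 are named in the submitters' processing notes. The annotation release and the strand setting were not given in the sources used here. The deposited table holds raw read counts, with 47729 identifiers and 0 count columns unused. Of these, 47224 had a symbol and 47310 were in GENCODE M21 (GRCm38), the source of gene positions. The authors' deposited comparison table gives log2 fold changes, p-values and adjusted p-values for 305 genes, per the file headers, of which 0 are members. Its name points to cutoffs on p, fold change and level, so absence from it does not show that a gene was unchanged. Control samples were grouped by the design text, since their genotype entry reads Yap CKO and lists no Cre.

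Each comparison was fitted on its own 6 libraries with edgeR 4.0.16 (R 4.3.3): filterByExpr (minimum count 10, minimum total 15), TMM, robust quasi-likelihood F-test, Benjamini-Hochberg adjustment over all genes tested, threshold 0.05. All adjusted p-values of genes come from that test unless another tool is named. Intervals are 95% on the log2 scale, and a fold is 2 to the fitted log2 value. A floor of 3 counts was used for counting error only, since reads without molecular identifiers are not independent molecules. RPKM were computed with exon-union lengths of GENCODE M21. The fit was also run on simulated counts with known changes, and no result given here rests on that run.

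Members and lists were chosen with earlier results of these data known. By rule, Pcna, Mcm2, Mcm6, Rrm2, Mki67, Top2a, Cdk1 and Ccnb1 and, per comparison, the 4 replication and 4 mitosis members with the smallest p are given with every library's value, with up to 3 genes per further list. Other members named individually, the rod relation and the lens markers' library were picked after values were seen. Alternatives were RLE and upper-quartile scaling, no filter, 1 CPM in 3 libraries, DESeq2 1.42.0, limma-voom (limma 3.58.1), bias-adjusted deviances, 1 fit of all 9 libraries, thinning to 13760765 counts, a replicate block and leaving out each library. Exon overlaps with other genes were computed: 67.3% for Gins2 (Gse1), 22.8% for Ube2c (Tnnc2), 12.5% for Ccna2 (Exosc9) and under 10% for other members.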

Additional observations from a re-analysis of the deposited data

How the results depend on the processing

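In Yap CKO against control, every alternative called 0 members, except that DESeq2 called 1 replication member lower. For control against C57, higher replication members numbered 2 with the replicate block (possible only for libraries numbered 1 and 2) in place of 5, and 2 to 6 when 1 library was left out. Lower replication members were 2 in place of 1 with all 9 libraries in one fit or with thinning, and 1 to 2 with 1 library left out. Higher mitosis members were 2 in place of 1 without a count filter. Lower ones were 2 in place of 4 without a filter or with all 9 libraries, and 2 to 4 with 1 library left out. For Yap CKO against C57, higher replication members were 6 in place of 3 with all 9 libraries in one fit. Higher mitosis members were 1 in place of 2 with the filter of 1 CPM, thinning or the replicate block, and 1 to 2 with 1 library left out. Lower replication members were 0 to 2 with 1 library left out. The cause of these shifts was not tested beyond the fewer or other genes and libraries each fit holds. Cdt1, Mcm6, Spc25, Plk1 and Foxm1 passed in every alternative of both C57 comparisons, and Rrm1 in every one of control against C57.

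In Yap CKO against control, log2 values of members not called changed sign when 1 library was left out. Pcna ranged from -0.014 to 0.153, Mcm2 from -0.069 to 0.096, Rrm2 from -0.15 to 1.16, Bub1b from -0.69 to 0.65, Spc25 from -0.28 to 0.32, Plk1 from -0.36 to 0.13 and Foxm1 from -0.15 to 0.58. Bub1b was at -0.81 by limma-voom and -0.38 with the replicate block, and Spc25 at -0.011 after thinning. Among calls against C57, Mcm3 (control) was lost with the replicate block (adjusted p = 0.141), as were Mcm5 (0.140) and Top2a (0.153) in Yap CKO. Bub1b (control) was lost without a filter (0.0859) and with all 9 libraries (0.379).

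Same-numbered control and Yap CKO libraries correlated in their deviations at 0.408, -0.028 and 0.042, so the numbers were not taken as pairs. With the replicate block, 3 genes were higher and 42 lower over all genes, in place of 3 and 30, and no member was called. The count over all genes in Yap CKO against control was 656 higher and 817 lower without Yap CKO replicate 3 and 0 in both directions without control replicate 1 or 2. C57 depth limits what can be said of genes under 1 CPM.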
